A study of Kryptolebias marmoratus with 5 samples.

Results

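The heat shock proteins and chaperones of the mangrove killifish *Kryptolebias marmoratus* were followed through 5 RNA-seq libraries of whole embryos. Members were taken by gene symbol: the HSP90, HSP70/HSP110 and small heat shock proteins, the chaperonin subunits, the DnaJ (HSP40) proteins, the heat shock factors, the BAG proteins and the cochaperones *unc45*, *ahsa1* and *stip1*. *LOC108232639*, annotated as a heat shock protein 30-like gene, was added by name with its values known, so its values are a description. With *LOC108232639* included, the members were 90 of the 22090 genes with a coding sequence. Of these, 81, among 15362 genes in all, averaged 2 CPM or more (CPM, counts per 1e6 reads after scaling the libraries with TMM factors). The gene that encodes the endoplasmic reticulum HSP70, *hspa5*, was not a member and is described with the other genes of the pathway.

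Chaperones bind unfolded proteins and help them to fold, or hand them on for degradation. HSP70 and HSP90 use ATP for this, DnaJ proteins bring substrates to HSP70, nucleotide exchange factors such as BAG proteins and HSP110 release them again, and the ring-shaped chaperonin TRiC (CCT) folds actin and tubulin. Many of these genes are expressed in every cell at all times, whereas others are switched on by heat shock factors when unfolded proteins accumulate. In zebrafish muscle, HSP90α works with the myosin chaperone Unc45b and the methyltransferase Smyd1b in the assembly of thick filaments.

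The libraries were WT (the *Hon9* strain), *stl* and *btl* embryos of 2 mutant lines made with ENU, and the phenotypically normal siblings of each line (*stl*-sibling and *btl*-sibling). The *stl* (shorttail) and *btl* (balltail) embryos were labelled as homozygous (-/-) mutants. *stl* embryos carry a missense mutation of *noto* and *btl* embryos one of *msgn1*. The siblings of such a line may hold heterozygous embryos, so they are not a WT strain. Each library was 1 pool of 20 to 25 embryos, labelled as stage 17 with stages 16 and 18 possible, and all cells of the embryo were included. There was 1 library for each group and no replicate, so no test of a difference was possible. The 3 phenotypically normal libraries (WT, *stl*-sibling and *btl*-sibling) were compared with each other in the same way, to show how far pools without a tail phenotype differed. The brackets after a log2 fold change hold its exact 95% interval (Clopper-Pearson) from the reads of both libraries, and this interval covers counting error and not the difference between pools. Where 5 values stand in a row, they follow the order WT, *stl*-sibling, *stl*, *btl*-sibling, *btl*. In RNA of whole embryos, fewer cells of a type and less RNA per cell cannot be told apart.

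The reads assigned to genes summed to 9147612 in the smallest library (*btl*) and 12220184 in the largest (*btl*-sibling). Fold changes were related to coding length, with Spearman's rho of -0.49 over all genes and -0.41 over members in *btl* against *btl*-sibling, and of 0.21 and -0.00 in *stl* against *stl*-sibling. Against WT, rho over all genes was 0.35 in *stl*, -0.34 in *btl*, 0.29 in *stl*-sibling and 0.42 in *btl*-sibling. The normal libraries thus differed in this way as well. The *btl* result also depended on scaling, because the median log2 fold change of all genes in *btl* against *btl*-sibling was -0.02 with TMM factors, -0.22 with library size alone and -0.55 in TPM. Values in *btl* are therefore to be read relative to that median.

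Most of the chaperone RNA came from a few genes. *hspa8*, the constitutive HSP70 (HSC70) of the cytosol, had the highest mean level per coding length of all members. Its level was 2355 TPM in WT, 2680 in *stl* beside 2605 in its siblings, and 1949 in *btl* beside 2501 in its siblings. *hspb1*, the small heat shock protein HSP27, followed with 1551 TPM in WT, 1641 in *stl* beside 1671 in its siblings, and 1339 in *btl* beside 1732 in its siblings. *hsp90ab1*, the constitutive HSP90β, had a mean of 1582 TPM, and *cct5* and *tcp1*, subunits of TRiC, had means of 376 and 360 TPM. The first 3 of these genes made up between 52.2% and 54.1% of the TPM of all members in each of the 5 libraries. All 90 members together took 1.01% of all TPM in WT, 1.18% in *stl* beside 1.12% in its siblings, and 0.811% in *btl* beside 1.11% in its siblings. The share in *btl* is the lowest, on the scale where the median of all genes in *btl* was also lowered.

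**Figure D1:**
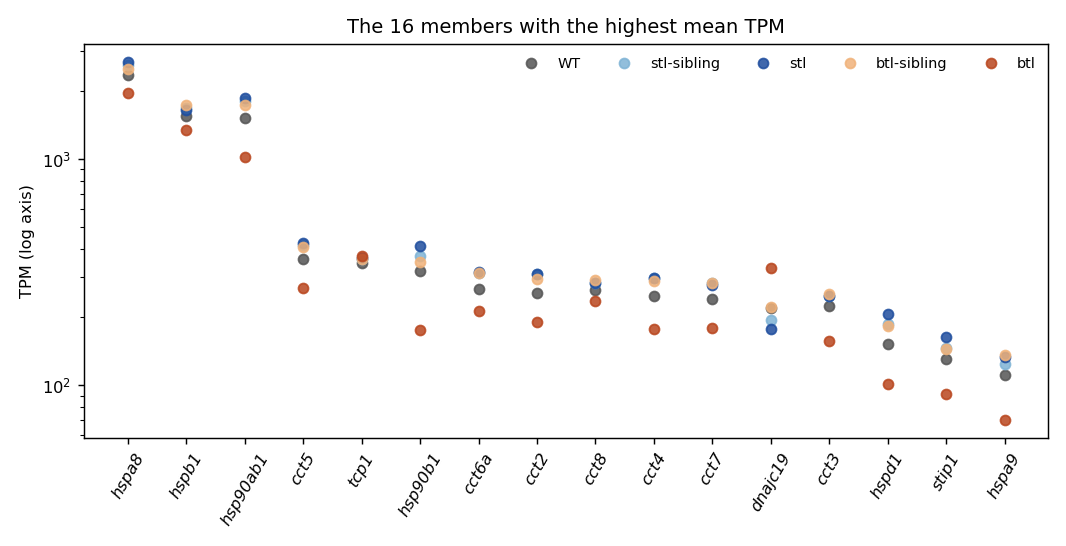
TPM on a log axis of the 16 members with the highest mean level, with 1 point for each of the 5 libraries. *hspa8*, *hspb1* and *hsp90ab1* stand apart above the rest, the *btl* points are lowest for most genes on this scale, where the median of all genes in *btl* is shifted by -0.55 on the log2 scale against *btl*-sibling, and *tcp1* and *dnajc19* are exceptions.

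On the CPM scale these abundant chaperones differed little between libraries. *hspa8* had 5899 CPM in WT, 6041 in *stl* beside 5943 in its siblings, and 6158 in *btl* beside 5271 in its siblings, a log2 fold change of 0.02 in *stl* and 0.22 in *btl* against the sibling. *hsp90ab1* had 4254, 4611, 4733, 4090 and 3633 CPM, with 0.04 in *stl* and -0.17 in *btl*. *hspb1* had 1002, 981, 947, 938 and 1093 CPM, with -0.05 and 0.22. Although *hspb1* is known as a heat-inducible gene in zebrafish, its highest and lowest libraries here were *btl* and *btl*-sibling, and *stl* was next to the lowest. This order rests on the setting. With the trend over coding length removed, *hspb1* had -0.06 in *btl* against both *btl*-sibling and WT, and 0.07 in *stl* against WT.

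The TRiC subunits were even, above all in *stl*. The 8 subunit genes *tcp1* and *cct2* to *cct8* lay between 223 and 361 TPM in WT. In *stl* against *stl*-sibling their log2 fold changes ran only from -0.05 for *cct7* to 0.00 for *tcp1*, *cct5* and *cct6a*. In *btl* against *btl*-sibling 6 of them lay between -0.12 (*cct4*) and 0.02 (*cct6a*), and *cct8* had 0.27. *tcp1* stood apart with 0.63 (0.58 to 0.67), from 738 CPM in WT, 702 in *stl* beside 701 in its siblings, and 1002 in *btl* beside 648 in its siblings. The mitochondrial chaperonin *hspd1* (HSP60) had 335, 377, 411, 338 and 281 CPM, with 0.13 in *stl* and -0.26 in *btl*. The mitochondrial HSP70 *hspa9* had 291, 296, 317, 301 and 233 CPM, with 0.10 (0.03 to 0.16) in *stl* and -0.37 (-0.45 to -0.29) in *btl*. Both mitochondrial chaperones were thus highest in *stl* and lowest in *btl*.

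Against this even background a small group of members had its highest level in *stl* and its lowest in *btl*-sibling. *LOC108232639* lies on linkage group LG14 (21304452 to 21305177, assembly ASM164957v2) and encodes a small heat shock protein of the HSP30 type. This gene, whose coding sequence is annotated as incomplete at its start, had the widest range of all members. It had 74.6 reads (6.44 CPM) in WT, 404.5 reads (34.1 CPM) in *stl* beside 48.0 reads (3.94 CPM) in its siblings, and 74.7 reads (8.93 CPM) in *btl* beside 2.61 reads (0.203 CPM) in its siblings. Thus *stl* stood above all other libraries, *btl*-sibling was close to 0, and *btl* was the library nearest to WT. The log2 fold change was 2.96 (2.68 to 3.57) in *stl* against *stl*-sibling and 2.32 (2.04 to 2.77) in *stl* against WT. In *btl* it was 3.75 (3.66 to 7.57) against *btl*-sibling, which rests on fewer than 3 reads in that sibling library, and 0.44 (-0.01 to 0.95) against WT. *btl*-sibling itself was at -3.30 (-7.11 to -3.19) against WT. The fold change uses a pseudocount of 0.5 CPM and so understates a ratio at such low levels.

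The reads of this gene are partly shared with a close copy. *LOC108232651*, also annotated as heat shock protein 30-like, ends 33 bases before it on LG14 (21299923 to 21304418) and is not a member. Their single estimates were not whole numbers, as is the case where Salmon divides reads between similar sequences. Summed over both genes there were 161.0 reads in WT, 725.9 in *stl* beside 104.0 in its siblings, and 141.6 in *btl* beside 17.0 in its siblings. In CPM the order of the libraries for the sum was the same as for the member alone. The log2 fold change of the sum was 2.77 (2.54 to 3.15) in *stl* and 3.26 (2.95 to 4.50) in *btl* against the sibling, 0.27 (-0.05 to 0.62) in *btl* against WT, and -2.98 (-4.21 to -2.67) in *btl*-sibling against WT.

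*hsp90aa1.2*, one of the pair of genes for the inducible HSP90α, was likewise highest in *stl* and lowest in *btl*-sibling, at a much higher level. It had 234 CPM in WT, 534 in *stl* beside 168 in its siblings, and 187 in *btl* beside 54.7 in its siblings. The level in *stl* was 3.17-fold that of *stl*-sibling (log2 1.66, 1.59 to 1.74) and also above WT (log2 1.19, 1.12 to 1.25). In *btl* it was 3.41-fold that of *btl*-sibling (log2 1.77, 1.65 to 1.91) but lower than in WT (-0.32, -0.41 to -0.23). *btl*-sibling had 4.26-fold less than WT (-2.09, -2.22 to -1.98).

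*hspa8b*, which RefSeq names as a further member of the HSC70 type and lies on LG2, had 107 CPM in WT, 251 in *stl* beside 94.7 in its siblings, and 88.3 in *btl* beside 31.3 in its siblings. Its log2 fold change was 1.40 (1.31 to 1.51) in *stl* and 1.48 (1.32 to 1.67) in *btl* against the sibling, and -0.28 in *btl* against WT. The far more abundant *hspa8* did not share this range, and how many reads of such similar genes could be assigned to the wrong copy was not tested. *dnaja*, a DnaJ cochaperone of HSP70 on LG11, had 102, 72.8, 168, 42.8 and 90.3 CPM. Its log2 fold change was 1.202 (1.09 to 1.32) in *stl* and 1.07 (0.92 to 1.24) in *btl* against the sibling, and -0.18 in *btl* against WT.

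Smaller ranges with the same highest and lowest library were found for cochaperones that act on HSP70. *hspbp1*, a nucleotide exchange factor of HSP70, had 21.4 CPM in WT, 28.8 in *stl* beside 15.7 in its siblings, and 20.4 in *btl* beside 11.1 in its siblings, with a log2 fold change of 0.85 (0.61 to 1.13) in *stl* and 0.85 (0.55 to 1.21) in *btl*. *dnajb1b*, one of a pair of genes for the heat-inducible HSP40, had 83.4, 73.5, 108.7, 51.5 and 91.8 CPM, with 0.56 (0.44 to 0.69) and 0.83 (0.68 to 0.99). *dnajb1a*, the other of that pair, had 15.3, 11.3, 17.0, 8.63 and 15.8 CPM, with 0.57 (0.27 to 0.92) and 0.83 (0.50 to 1.25). For all 3 genes *btl* lay within 0.14 of WT on the log2 scale, and *stl* and *btl* both lay above their siblings.

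**Figure D2:**
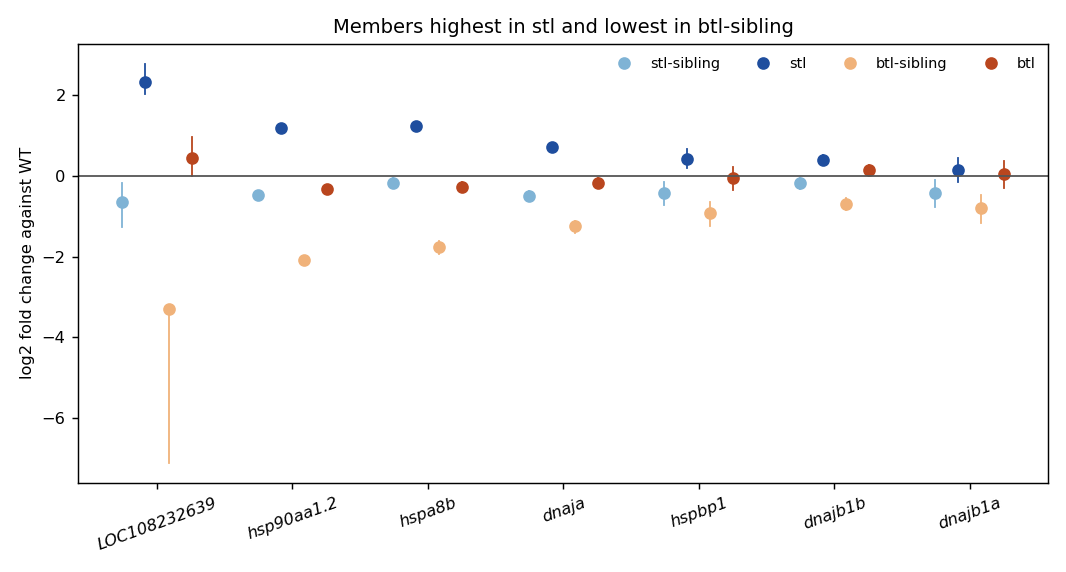
Log2 fold change against WT of 7 members in the other 4 libraries, where points are the fold change and lines its 95% counting interval. *stl* is the highest and *btl*-sibling the lowest library for each gene, from 2.32 and -3.30 for *LOC108232639* to 0.14 and -0.79 for *dnajb1a*, and *btl* lies between -0.32 and 0.44.

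Of the 81 members, 10 were highest in *stl* and lowest in *btl*-sibling (12.3%), against 3.42% of the 15362 genes. Of these, 6 members differed at least 2-fold between those libraries (7.41%), against 0.573% of all genes. Without *LOC108232639*, which was added with its values known, these were 9 of 80 (11.2%) and 5 of 80 (6.25%). The further members with this order were *ahsa1a*, the activator of the HSP90 ATPase, *dnaja1*, an HSP70 cochaperone, and *cct6a*. *ahsa1a* had 40.6 CPM in WT, 52.6 in *stl* beside 38.0 in its siblings, and 41.0 in *btl* beside 35.2 in its siblings, with 0.47 (0.30 to 0.65) in *stl*. The range of *cct6a* was only 0.10 on the log2 scale. This order was noticed in the values, so the counts only describe it. As a group the members varied no more than other genes, with a median of 1.33-fold between the lowest and highest library against 1.46-fold for all genes. Of the members, 20 of 81 stayed within 1.2-fold, which is a larger share than the 2059 of 15362 genes.

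Likeness to *LOC108232639* over the 5 libraries was taken as Pearson's r of log2 CPM, with the pseudocount of 0.5 CPM. On this log scale the closest genes were *usp48* (r = 0.999), *dr1* (0.998), *LOC108234538* (0.997), the neighbour *LOC108232651* (0.994) and *dnajb1b* (0.992). With 5 libraries this is a description of order and shape, and 52 of 15361 genes reached 0.95. *usp48* ranged only from 61.9 to 70.5 CPM. *hsp90aa1.2*, *dnaja*, *hspbp1* and *hspa8b* stood at ranks 11, 12, 15 and 21.

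Markers of other tissues were read in the same libraries. The blood markers also had their highest sum in *stl* and their lowest in *btl*-sibling, with 292 CPM in WT, 315 in *stl* beside 305 in its siblings, and 254 in *btl* beside 185 in its siblings over 4 genes, and none of them was at 0 in any library. The 4 lens markers found, of which 1 was kept, summed to 43.4 CPM in *stl* and to between 4.42 and 13.9 CPM in the other libraries, and 1 of them had no reads in *btl*. The notochord markers summed to 108.8 CPM in *stl*, 261 in *btl* and between 685 and 1016 in the normal libraries over 10 genes. Against the sibling, 7 of 10 were at least 2-fold lower in *stl* (0.996% of all genes) and 7 of 10 in *btl* (3.27%). In *btl* 2 of 10 were at least 2-fold higher (4.33% of all genes), so these markers did not all fall together. The part of these differences in the chaperone values was not tested.

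Some HSP70 genes were too rare for the filter but had most of their reads in *stl*. *hspa1b*, the classical heat-inducible HSP70, had 5 reads in WT, 29 in *stl* beside 4 in its siblings, and 5 in *btl* beside 3 in its siblings. The ratio of reads in *stl* against *stl*-sibling had a log2 interval of 1.39 to 4.87, and in *stl* against WT of 1.12 to 4.23. *hspa4l*, a member of the HSP110 family, had 8, 8, 41, 7 and 5 reads, with intervals of 1.28 to 3.70 against *stl*-sibling and 1.21 to 3.63 against WT. In neither gene was *btl*-sibling set apart from WT or *btl* at this depth. *hspa4a*, another HSP110, was also highest in *stl*, with 134 CPM in WT, 193 in *stl* beside 133 in its siblings, and 109.03 in *btl* beside 112 in its siblings. Its log2 fold change was 0.53 (0.44 to 0.63) in *stl* and -0.04 (-0.16 to 0.08) in *btl*, which was its lowest library. The paralogue *hspa4b* had 0.12 in *stl* and -0.15 in *btl*.

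By the written lists, the inducible members were *hspa1b*, *hsp90aa1.1*, *hsp90aa1.2*, *hspb1*, *dnajb1a*, *dnajb1b* and *bag3*, of which 6 were kept. Their median log2 fold change was 0.34 in *stl* and 0.52 in *btl* against the sibling, with 4 of 6 above 0 in each, but in *btl* it was 0.06 against WT and -0.06 against the sibling in TPM. Between normal libraries the same median reached 0.44, in *stl*-sibling against *btl*-sibling. The constitutive list, with 15 of 16 kept, stood at a median of 0.00 in *stl* and -0.04 in *btl*, and it contains *hspa8b* and *hspa4a*. Over all 81 members the medians were 0.03 and 0.02, beside -0.00 and -0.02 for all genes tested.

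In *stl* against *stl*-sibling, 4 of 81 members were at least 2-fold higher (4.94%), namely *LOC108232639*, *hsp90aa1.2*, *hspa8b* and *dnaja*, against 0.215% of all genes, and none was at least 2-fold lower, against 0.996% of all genes. Without *LOC108232639*, 3 of 80 were higher (3.75%). In *stl* against WT, 3 members (*LOC108232639*, *hsp90aa1.2* and *hspa8b*) were at least 2-fold higher, against 1.2% of all genes, and 2 of 80 without *LOC108232639*. In *btl* against *btl*-sibling, 6 members were at least 2-fold higher (7.41%), which were the same 4 genes with *hspb7* and *dnajc19*, against 4.33% of all genes, and 5 of 80 without *LOC108232639* (6.25%). There *hsp90aa1.1* was the only member at least 2-fold lower, against 3.27% of all genes. The 4 genes of the *stl* list were also in the *btl* list of 6, and the same overlap over all genes was not counted. In *btl* against WT they stood at 0.44 (*LOC108232639*), -0.32 (*hsp90aa1.2*), -0.28 (*hspa8b*) and -0.18 (*dnaja*). At 1.5-fold, 2 members were lower and 6 higher in *stl*, against 2.43% and 1.22% of all genes, and 7 were lower and 16 higher in *btl*, against 11.1% and 14.1% of all genes. The 23 members past 1.5-fold in *btl* are 28.4% of 81, near that background. The split in *btl* depended on scaling, with 3 lower and 3 higher by library size alone, 9 lower and 2 higher in TPM, and 3 lower and 4 higher once the trend with coding length was removed.

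The same 4 genes were at least 2-fold lower in *btl*-sibling than in WT (3 of 80 without *LOC108232639*), against 0.697% of all genes, and no member was at least 2-fold higher there. The comparisons of *btl* with *btl*-sibling and of *btl*-sibling with WT share the *btl*-sibling library. Between *btl* and WT only *hsp90aa1.1* (lower) and *dnajc12* (higher) differed at least 2-fold, against 4.37% of all genes, and *dnajc12* was at 0.96 with the length trend removed. Between *stl*-sibling and WT no member did, against 1.71% of all genes. In *stl*-sibling against *btl*-sibling, 3 members were at least 2-fold higher (3.70%), beside 165 of 15362 genes, and 2 of 80 without *LOC108232639*. These were *LOC108232639* (2.66), *hsp90aa1.2* (1.61) and *hspa8b* (1.58). No member was at least 2-fold lower there, beside 160 of 15362 genes. The same genes thus also differed between the 2 normal sibling pools.

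**Figure D3:**
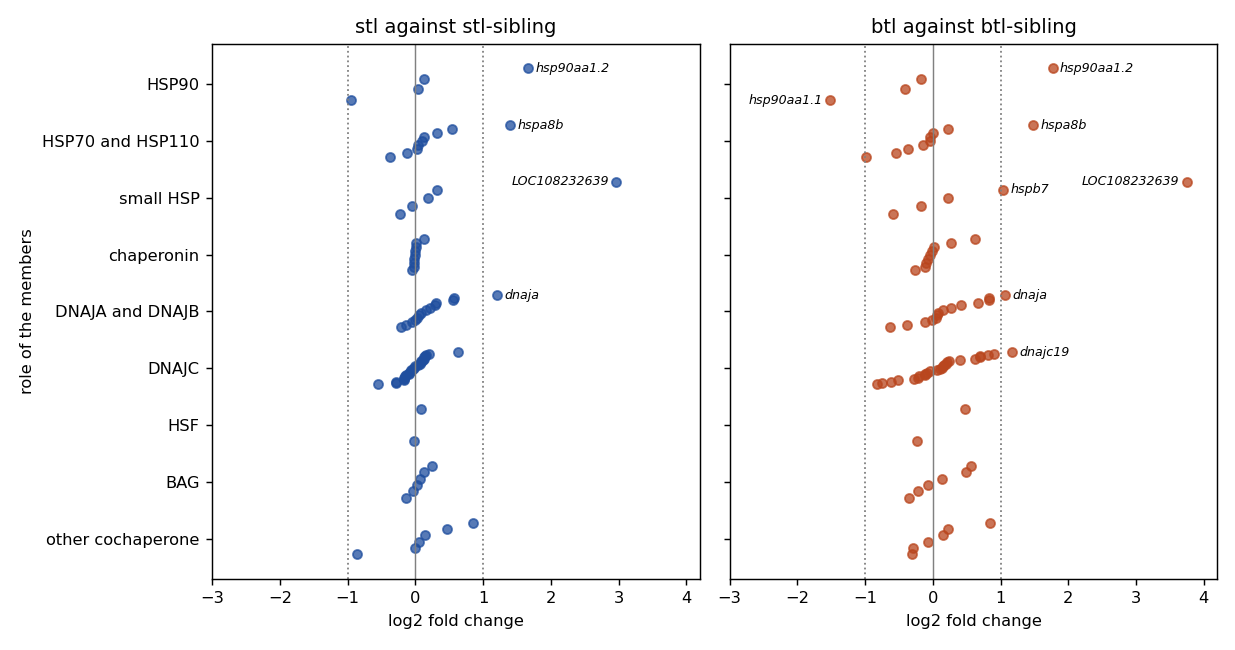
Log2 fold change of the 81 members against the sibling by role in *stl* (left) and *btl* (right), with 1 point for each gene and dotted lines at 2-fold. *LOC108232639*, *hsp90aa1.2*, *hspa8b* and *dnaja* lie beyond 2-fold in both mutants, *hsp90aa1.1* lies at -0.95 and -1.51, and the chaperonin genes lie close to 0 in *stl*.

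Against the siblings, the pair of HSP90α genes differed in opposite directions, whereas against WT both were lower in *btl*. *hsp90aa1.1* lies 417 bases from *hsp90aa1.2* on LG19 (14720283 to 14724769, against 14715192 to 14719865), and HSP90α of this kind is a gene of differentiating muscle in zebrafish. *hsp90aa1.1* had 86.9 CPM in WT, 77.9 in *stl* beside 151 in its siblings, and 32.4 in *btl* beside 93.5 in its siblings. It was highest in *stl*-sibling and lowest in *btl*, unlike its neighbour. The log2 fold change was -0.95 (-1.07 to -0.84) in *stl* and -1.51 (-1.72 to -1.34) in *btl* against the sibling. Against WT it was -0.16 in *stl* and -1.41 (-1.62 to -1.23) in *btl*, while *stl*-sibling stood 0.79 above WT, so the difference in *stl* depended on which normal library was the reference.

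Per coding length, *hsp90aa1.2* had 2.67 times the TPM of *hsp90aa1.1* in WT, 6.77 times in *stl* beside 1.102 in its siblings, and 5.72 times in *btl* beside 0.578 in its siblings. The ratio was thus above that of every normal library in both mutants. Summed over the pair, the log2 fold change was 0.94 in *stl* and 0.57 in *btl* against the sibling, and -0.55 in *btl* against WT. How many reads of the pair were assigned to the wrong gene was not tested.

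The order of the libraries for *hsp90aa1.1* was that of the muscle markers. The 17 markers of somite muscle found summed to 832 CPM in WT, 667 in *stl* beside 1463 in its siblings, and 327 in *btl* beside 1006 in its siblings, and none was at 0 in any library. The median log2 fold change of the 16 kept was -1.02 in *stl* and -1.83 in *btl* against the sibling, and 0.86 in *stl*-sibling against WT. Against the sibling, 10 of 16 in *stl* and 12 of 16 in *btl* were at least 2-fold lower, against 0.996% and 3.27% of all genes. Against WT the median was only -0.17 in *stl*, with 0 of 16 at least 2-fold lower, and -1.57 in *btl*, with 14 of 16. Of all 15362 genes, 234 in *stl* and 394 in *btl* were that much lower than in WT. *unc45b*, the myosin chaperone of striated muscle, had 27.1 CPM in WT, 21.2 in *stl* beside 38.9 in its siblings, and 22.0 in *btl* beside 27.1 in its siblings. It too was highest in *stl*-sibling, but its lowest library was *stl* and not *btl*. Its log2 fold change against the sibling was -0.86 (-1.10 to -0.65) in *stl* and -0.30 (-0.57 to -0.04) in *btl*. Against WT it was -0.35 (-0.60 to -0.11) in *stl* and -0.30 in *btl*, and *stl*-sibling stood 0.51 above WT. The size of the difference in *stl* thus depended on the reference. With the length trend removed, *unc45b* had -0.89 in *stl* and only -0.08 in *btl*. Its general paralogue *unc45a* had 18.9, 19.5, 20.3, 23.0 and 18.5 CPM, with 0.06 and -0.30, or 0.02 and -0.09 with that trend removed. *smyd1b*, a partner of this machinery and not a member, had -1.20 in *stl* and -0.59 in *btl*. What part of these values goes with the amount of muscle was not tested.

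**Figure D4:**
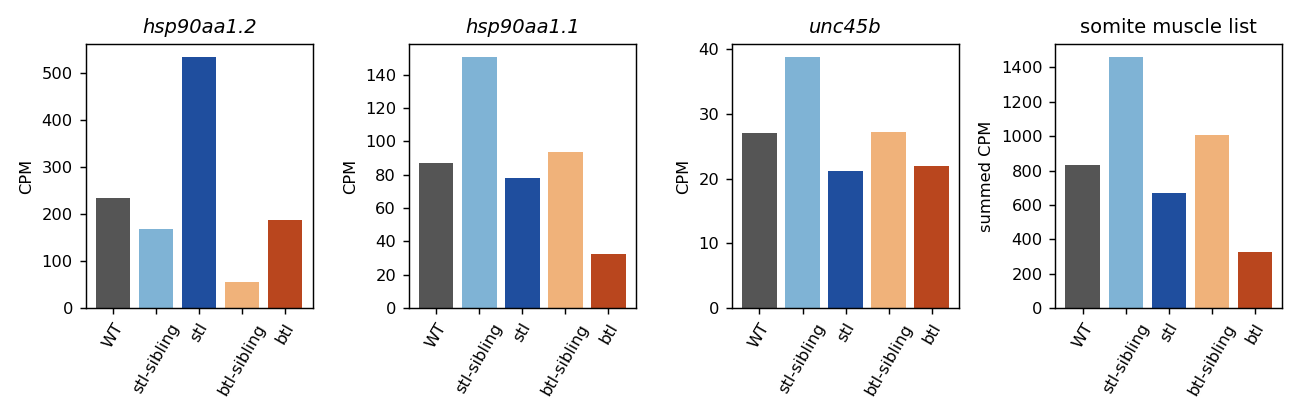
Bars give the CPM of *hsp90aa1.2*, *hsp90aa1.1* and *unc45b* and the summed CPM of the 17 somite muscle markers in the 5 libraries, on axes that start at 0. *hsp90aa1.1* and the muscle sum have the same order, highest in *stl*-sibling (151 and 1463) and lowest in *btl* (32.4 and 327), while *hsp90aa1.2* is highest in *stl* (534).

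Among members of the endoplasmic reticulum, *hsp90b1*, *hspa13* and the *dnajc3* pair were lower in *btl*, and the DnaJ genes *dnajb11*, *dnajc1* and *dnajc10* were not. These genes were grouped after their values were seen, and they are a selection and not all members of that compartment. *hsp90b1*, the HSP90 of that compartment (GRP94), had 999 CPM in WT, 1160 in *stl* beside 1060 in its siblings, and 689 in *btl* beside 917 in its siblings. The log2 fold change in *btl* was -0.41 (-0.46 to -0.37) against *btl*-sibling and -0.53 (-0.58 to -0.49) against WT, and it was 0.13 in *stl*. *hspa13*, an HSP70 of the endoplasmic reticulum, had 11.5, 12.2, 11.1, 16.4 and 8.01 CPM, with -0.99 (-1.45 to -0.63) in *btl* against the sibling and -0.49 against WT. *dnajc3a* and *dnajc3b*, the pair of genes for the luminal DnaJ protein P58IPK, had -0.52 (-0.77 to -0.28) and -0.62 (-0.94 to -0.34) in *btl*, and 0.15 and -0.06 in *stl*. With the trend over coding length removed, the values in *btl* were -0.24 for *hsp90b1*, -1.01 for *hspa13*, -0.49 for *dnajc3a* and -0.59 for *dnajc3b*. *dnajb11*, another luminal DnaJ protein, had 0.15 in *btl* against the sibling. *dnajc10*, a DnaJ protein with disulfide reductase activity in the lumen, had 0.20 (0.04 to 0.37), or 0.37 with the length trend removed. *dnajc1*, a DnaJ protein of the membrane of that compartment, had 0.15 (0.01 to 0.29).

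Genes of the pathway outside the member list were read for comparison, and 36 of the 39 genes found were kept. In *stl* 1 of 36 was at least 2-fold lower (*smyd1b*, 2.78%, against 0.996% of all genes) and none higher (against 0.215%). In *btl* 1 of 36 was lower (2.78%, against 3.27% of all genes) and 3 were higher (8.33%, against 4.33%). The lower gene in *btl* was *hyou1*, the HSP110 of the endoplasmic reticulum, at -1.0 (125 CPM in *btl*-sibling and 61.9 in *btl*), just past 2-fold. With the length trend removed it was at -0.78, and against WT at -0.79, so that count rests on the setting. In the same compartment *hspa5* (BiP) had -0.62, *canx* (calnexin) -0.80, *calr* (calreticulin) -0.49, *pdia4* -0.49 and *pdia6* -0.32. Others were at -0.15 (*sil1*), 0.05 (*pdia3*) and 0.38 (*serpinh1b*), so not all were lower. The 3 higher genes were the prefoldin subunits *pfdn1* (1.34), *pfdn5* (1.02) and *pfdn6* (1.14), which deliver actin and tubulin to TRiC, but with the length trend removed they had 0.55, 0.55 and 0.35. *serpinh1b*, the collagen chaperone HSP47, had 190 CPM in WT, 273 in *stl* beside 199 in its siblings, and 157 in *btl* beside 121 in its siblings, which is again highest in *stl* and lowest in *btl*-sibling.

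Among the remaining small heat shock proteins the reads were few. *hspb7*, a small heat shock protein of heart and muscle, had 29, 31, 39, 26 and 39 reads, with 1.03 (0.45 to 1.98) in *btl*, or 0.56 with the length trend removed. *hspb8*, which acts with BAG3 in chaperone-assisted autophagy, had 65, 62, 51, 61 and 25 reads, with -0.59 (-1.40 to 0.03) in *btl* against the sibling. With the length trend removed *hspb8* had -0.86 there, and in *btl* against WT it had -0.81 (-1.64 to -0.22). *hspb11* had between 18 and 34 reads. *hspb6* had 0 reads in all 5 libraries, which allows up to 3 reads in each, or 0.359 CPM in *btl*, where that limit was highest.

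Over the DnaJ genes most members were close to their siblings in *stl*. Of the 26 DNAJC genes kept, the extremes in *stl* were *dnajc12* at 0.63 (0.07 to 1.39) and *dnajc28* at -0.55 (-1.25 to -0.01). In *btl* they were *dnajc19* at 1.17 (1.04 to 1.31) and *dnajc18* at -0.82 (-1.37 to -0.39). *dnajc19*, of the import motor of the mitochondrial inner membrane, had 66.7 CPM in WT, 47.3 in *stl* beside 53.4 in its siblings, and 127 in *btl* beside 56.2 in its siblings. *btl* was the highest library, but the coding sequence has only 351 bases and the value was 0.38 with the length trend removed. *dnajc12*, a cochaperone of the aromatic amino acid hydroxylases, had 43, 33, 53, 62 and 79 reads, with 1.24 (0.79 to 1.92) in *btl* against WT and 0.90 against *btl*-sibling, or 0.43 with that trend removed. Of the 14 DNAJA and DNAJB genes kept, *dnajb2*, a DnaJ protein known from neurons, was the lowest in both mutants, at -0.21 in *stl* and -0.63 (-1.19 to -0.18) in *btl*, and *dnaja* was the highest in both.

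The transcription factors of the heat shock response differed little. *hsf1*, the main activator of heat shock genes, had 72.2 CPM in WT, 75.8 in *stl* beside 76.6 in its siblings, and 70.4 in *btl* beside 82.6 in its siblings, with -0.02 in *stl* and -0.23 in *btl*. Its RNA was highest in *btl*-sibling and lowest in *btl*, and its activity was not measured. *hsf2*, a related factor, had 19.2, 18.8, 20.0, 17.2 and 24.0 CPM, with 0.09 and 0.47 (0.20 to 0.77). *hsf2* RNA was thus lowest in *btl*-sibling and highest in *btl*. *hsf4* and *hsf5* had at most 8 reads in a library.

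No BAG gene differed 2-fold in either mutant, and *bag1* had the widest range of them over the 5 libraries (0.64 on the log2 scale, against a median of 0.54 for all genes). *bag3*, a heat-inducible partner of HSP70, had 15.0 CPM in WT, 18.8 in *stl* beside 17.2 in its siblings, and 15.9 in *btl* beside 16.7 in its siblings, with 0.13 and -0.07. The extremes among the 6 BAG genes were *bag2* (0.25) and *bag5* (-0.14) in *stl*, and *bag1* (0.57) and *bag6* (-0.36) in *btl*. With the length trend removed, *bag1* had 0.29 and *bag6* -0.08 in *btl*, and *bag4* was the lowest there at -0.305. *stip1*, the HOP protein that links HSP70 to HSP90, had 271, 276, 305, 251 and 239 CPM, with 0.15 and -0.08. The atypical HSP70 *hspa12a* had 214, 183, 136, 307 and 136 reads, with -0.38 (-0.72 to -0.06) and -0.54 (-0.86 to -0.26). *hspa12b* had between 31 and 50 reads, and *hspa14*, of the ribosome-associated complex, lay between 69.9 and 76.1 CPM in all libraries.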

How the data were processed

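RNA-seq was made from 5 pools of embryos, 1 for each group. The authors trimmed the reads, ran Salmon 1.5.0 with the ASM164957v2 coding sequences as its index, and deposited for each library the estimated counts (not scaled) and TPM of each coding sequence. UTRs were not counted, and reads that fit close copies were divided between them. They also deposited joined tables of counts and RPKM and comparisons made with NOISeq; of these only the product names were used, and the joined counts differed from the single tables by at most 0. Of 37181 coding sequences, 37146 were assigned to 22090 RefSeq genes and 35 were not. Estimated counts were summed for each gene, to between 9147612 and 12220184 a library, and scaled to CPM with the TMM factors of edgeR 4.0.16 (R 4.3.3). The log2 fold change used a pseudocount of 0.5 CPM, and genes averaging under 2 CPM were left out. With 1 library a group no test was made, and 2-fold was used as the threshold for counting. Intervals are exact Clopper-Pearson intervals of the reads (scipy 1.17.1, numpy 2.4.6, pandas 2.3.3, Python 3.11.15); matplotlib 3.10.9 drew the figures. The fold change and the count past 2-fold were tested on simulated Poisson counts scaled by library size alone. That test did not cover the TMM factors, the intervals, the length trend or the difference between pools.

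The members and the lists were chosen with earlier results of these data known. The genes named are all members changed at least 2-fold in a mutant against its sibling or between normal libraries, all HSP90, HSP70, small HSP, HSF, *unc45*, *ahsa1*, *stip1* and *bag3* members, the 5 with the highest mean TPM, and the extremes of the DnaJ, TRiC and BAG groups; others named were chosen after their values were seen. Marker lists (somite muscle with 17 of 27 symbols found, lens with 4 of 10, notochord with 10 of 10, blood with 4 of 5) were matched by symbol. Alternatives were DESeq2 1.42.0 size factors, library size alone, TPM, pseudocounts of 0.1 and 2, no filter or a minimum of 10 CPM, other references, single coding sequences, a threshold of 1.5-fold, removal of the trend with coding length, and changes of the lists. A search for heat shock elements in promoters was planned and not run, because promoter sequences were not used here, and no sequence is printed.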

Additional observations from a re-analysis of the deposited data

Results flagged for a closer look

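For 3 members the mutants went in opposite directions, each beyond the spread among the 3 normal libraries and against both the sibling and WT. This rule was applied to the members only, and how many of all genes meet it was not counted. The count of 3 is therefore not a result about chaperones. No test was made of how far the mutants differed. *hspa9*, the mitochondrial HSP70, stood at 0.10 on the log2 scale in *stl* and -0.37 in *btl* against the sibling, and 0.13 and -0.32 against WT, with 3761 reads in *stl* and 1953 in *btl*. *dnajc17* had -0.29 (-0.68 to 0.07) in *stl* and 0.40 (0.04 to 0.78) in *btl* with 117 reads in *btl*. *dnajc28* had -0.55 (-1.25 to -0.01) in *stl* and 0.24 (-0.30 to 0.82) in *btl* from 38.1 and 50 reads, so the counting interval in *btl* includes 0.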

How the results depend on the processing

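No paired analysis was possible because each group has 1 library. The count of members at least 2-fold apart in *stl* was 4, and it was 7 with *btl*-sibling as reference and 8 at 1.5-fold. In *btl* it was 7, and it was 11 in TPM, 11 with single coding sequences, 4 against the mean of the 3 normal libraries, 2 against WT and 23 at 1.5-fold. Scaling by library size alone gave *btl* medians of -0.18 for all members and -0.25 for the constitutive list, and TPM gave -0.50 and -0.63, beside shifts of -0.22 and -0.55 in the median of all genes. The inducible median in *btl* was -0.064 in TPM and 0.063 against WT. Against WT, *hsp90aa1.2*, *hspa8b* and *dnaja* turned to -0.32, -0.28 and -0.18 in *btl*, and against *stl*-sibling *hspa8b* had -0.10. With *LOC108232639* in the inducible list, an alternative chosen after seeing the data, its medians were 0.56 in *stl* and 0.83 in *btl*. Of 394 values of single members under the alternatives, 270 lay within the counting interval of the reported value and 124 outside it; 12 changed sign, of which 4 were of members at least 2-fold apart. For shifts with scaling or reference the cause was not tested. Depth limited *hspa1b*, *hspa4l*, *hspb7*, *hspb8* and the *btl*-sibling value of *LOC108232639*.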

Other observations

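Other genes whose product is named as a heat shock or DnaJ protein lay outside the symbol rule. The product names came only from the authors' comparisons, so further genes of this kind may exist. These genes were named after their values were seen. *LOC108230432*, a DnaJ homolog subfamily C member 13 gene, had a log2 fold change of 0.09 (-0.02 to 0.19) in *stl* and 0.18 (0.08 to 0.28) in *btl* against the sibling. *LOC108251650*, a heat shock 70 kDa protein 1-like gene on LG12, had 85 reads in WT, 274 in *stl* beside 63 in its siblings, and 60 in *btl* beside 25 in its siblings. It was thus also highest in *stl* and lowest in *btl*-sibling, with a log2 fold change of 2.06 (1.76 to 2.58) in *stl* and 1.65 (1.19 to 2.62) in *btl* against the sibling, and -0.03 (-0.54 to 0.46) in *btl* against WT. *LOC108251697*, a heat shock protein beta-11-like gene on LG23, had 81.4 reads in *stl*-sibling and 108.6 in *stl*, and 2 reads in each of WT, *btl*-sibling and *btl*. It therefore differed between the *stl* line and the other libraries, with a counting interval of 3.37 to 8.34 on the log2 scale for *stl*-sibling against WT, and by only 0.43 (0.04 to 0.90) between *stl* and *stl*-sibling.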
